A study of Mus musculus with 15 samples.

Results

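The collagen chain genes of the mouse cornea were followed here in bulk RNA-seq of 4 groups of corneas. A gene was taken as a member when its symbol had the form Col, a number, a and a number, and when it had 10 or more counts in 3 or more of the 15 libraries. Of 55357 genes in the files, 44 carried such a symbol and 33 met the count rule. These were 10 fibrillar chains, 5 chains of fibril-associated collagens (FACIT), 6 chains of the basement membrane network, 2 short chains of hexagonal networks, 4 chains of beaded filaments, the anchoring fibril chain Col7a1, 4 transmembrane chains and the multiplexin chain Col18a1. Just inside the rule, Col25a1 had 10 or more counts in 11 libraries and Col5a3 in 14. Just outside it, Col15a1 had them in 2 libraries, with 1 to 13 counts. The other 10 symbols under the rule were Col2a1, Col6a5, Col6a6, Col9a1, Col9a2, Col10a1, Col19a1, Col22a1, Col26a1 and Col28a1.

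Collagen chains fold in sets into a triple helix, and the helices then assemble outside the cell in forms that differ by class. In the cornea, thin fibrils of type I collagen with type V in their cores give the stroma its strength and transparency, and the keratocytes between the lamellae make them. Epithelial cells sit on a basement membrane of type IV collagen and are held to it by the transmembrane collagen XVII and by anchoring fibrils of type VII, while the endothelium lays down the type VIII network of Descemet's membrane.

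The study set corneas of OPA1+/+ and OPA1+/- mice side by side at 3 and 6 months of age. Opa1 encodes a GTPase that fuses the inner membranes of mitochondria. There were 4 OPA1+/+ and 4 OPA1+/- libraries at 3 months, and 3 OPA1+/+ and 4 OPA1+/- libraries at 6 months. The labels give genotype, age, tissue and a replicate number, and they name no sex, strain, allele, date or batch, nor whether libraries came from separate animals, so p-values measure only the spread between these libraries.

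The libraries held 11673240 to 18194946 counts in genes, and a count of 0 in a library allows a level of up to 0.165 to 0.257 CPM (counts scaled to a common library total, adjusted by TMM). As a check of the labels, Opa1 itself ranged from 65.2 to 73.4 CPM over the 7 OPA1+/+ libraries and from 45.5 to 57.8 CPM over the 8 OPA1+/- ones, so the genotypes did not overlap. Markers of corneal epithelium (Krt12, at least 26106 CPM), stroma (Kera, 139 to 233 CPM) and endothelium (Slc4a11, 137 to 264 CPM) were present in every library. The summed photoreceptor markers were at 162 CPM in OPA1+/- replicate 4 of 3 months and at 156 CPM in OPA1+/+ replicate 1 of 6 months, against 12.1 to 26.5 CPM elsewhere. The same OPA1+/- library also had the most lens transcripts, with summed lens markers at 103.7 CPM against 4.59 to 29.1 CPM elsewhere.

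Of the 33 collagen chains, 4 fell between 3 and 6 months when both genotypes were averaged, and none rose. They were the fibrillar chains Col11a1, Col5a2 and Col24a1 and the FACIT chain Col16a1. Col11a1 fell by 0.96 ± 0.12 on the log2 scale (SE), to a fold of 0.513, and the other 3 fell by 0.43 to 0.62. Between genotypes no member passed the test at 3 months, at 6 months or averaged over both ages.

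These counts come from edgeR's quasi-likelihood test, fitted to 15770 genes in all 15 libraries with a Benjamini-Hochberg adjusted p under 0.05 as the threshold. Over all genes tested, 0.412% were called with age and 0.266% were called lower. Of the members, 24 had a negative and 9 a positive log2 fold change with age, with a median of -0.15 where all genes tested had a median of 0.00. At an unadjusted p under 0.05, 19 members were lower and none was higher, against 6.18% of all genes lower at that level. The count depended on the method. DESeq2 called 13 members, against 1.72% of the 13923 genes it gave an adjusted p. With limma voom 7 were called, against 0.761% of all genes, and all of these members were lower. When no filter on low counts was used 8 were called, against 0.682% of genes.

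**Figure D1:**
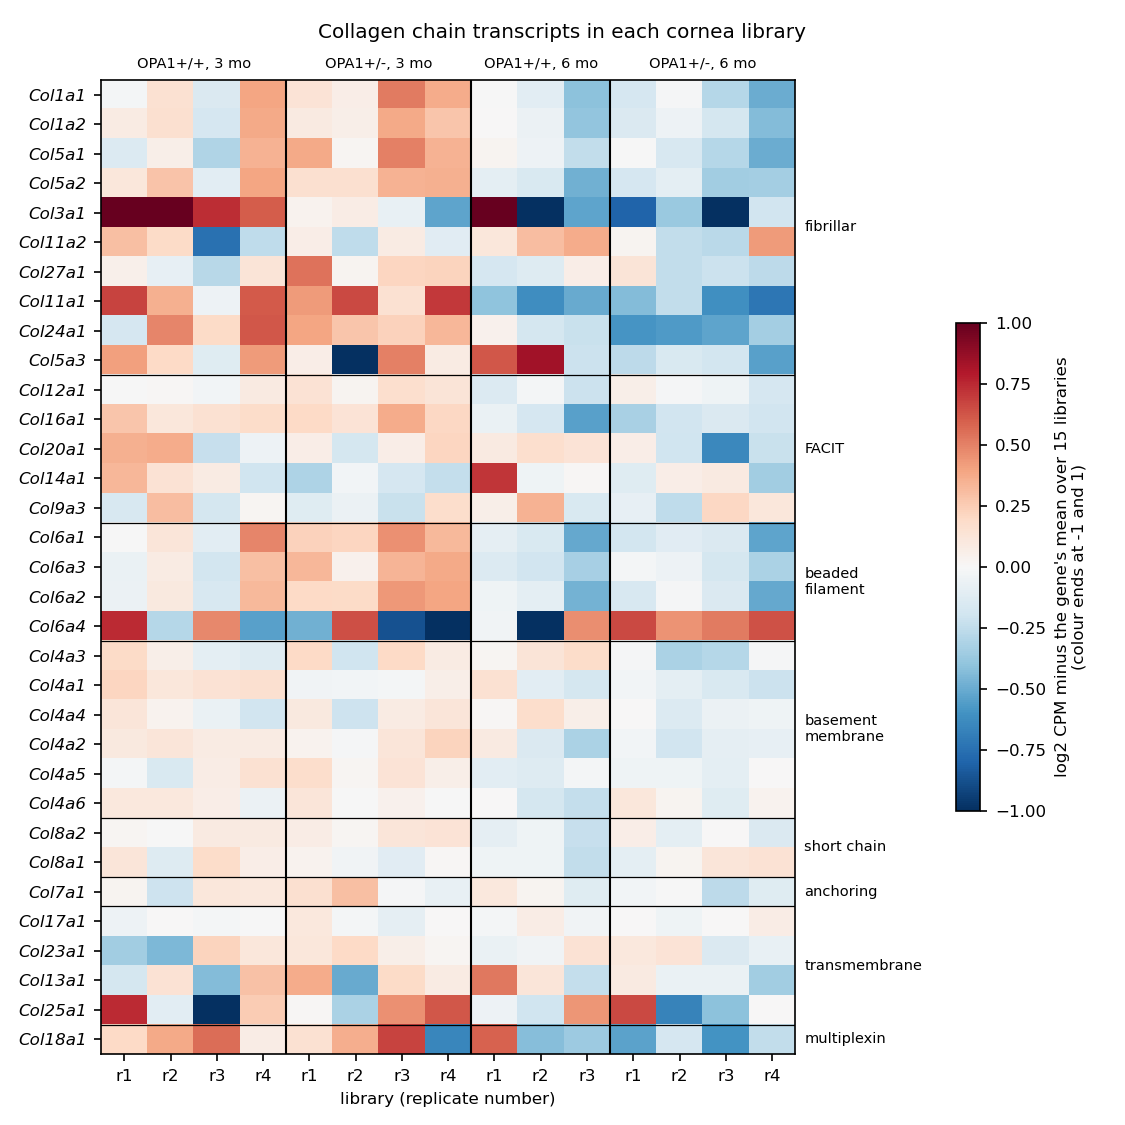
Collagen chain transcripts in each library, centred for each gene on its mean log2 CPM of the 15 libraries, with 1 row per member ordered by class and 1 column per library. Red stands for a level above the gene's mean and blue for one below it, with colours ending at -1 and 1; in most fibrillar rows and in the Col6a1 to Col6a3 rows the 3 month columns are redder than the 6 month columns.

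Col11a1 encodes a chain of type XI collagen, a minor fibrillar collagen that sits inside fibrils and sets their width, best known from cartilage. It lies on chr3:113824189-114014367, plus strand, in the coordinates of the files. Col11a1 was at 8.44, 6.75, 5.11 and 8.09 CPM in OPA1+/+ and at 7.1, 8.34, 5.87 and 8.62 CPM in OPA1+/- at 3 months, and at 3.99, 3.43 and 3.73 CPM in OPA1+/+ and at 3.92, 4.46, 3.45 and 3.21 CPM in OPA1+/- at 6 months. Values are given in replicate order here and for each gene below. All 7 libraries of 6 months lay below all 8 of 3 months, in both genotypes. Averaged over genotypes it changed by -0.96 ± 0.12 on the log2 scale (edgeR adjusted p = 0.00155). Within OPA1+/+ the decrease was 47.4% (edgeR adjusted p = 0.0604, not called) and within OPA1+/- it was 49.9% (adjusted p = 0.0427).

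Col16a1 encodes a fibril-associated chain that lacks fibrils of its own and binds to others. The gene is on chr4:129941633-129993076, plus strand. Col16a1 was at 38.7, 34.5, 35.5 and 36.2 CPM in OPA1+/+ and at 36.6, 35.1, 41.4 and 36.8 CPM in OPA1+/- at 3 months, and at 30.5, 28.4 and 21.8 CPM in OPA1+/+ and at 25.5, 28, 28.8 and 27.9 CPM in OPA1+/- at 6 months. Again all 7 libraries of 6 months were below all 8 of 3 months, and OPA1+/+ replicate 3 was the lowest. Its log2 fold change was -0.43 ± 0.06 (edgeR adjusted p = 0.00323), a decrease of 26.0%. The same comparison gave -0.43 ± 0.09 in OPA1+/+ (edgeR adjusted p = 0.0753, not called) and -0.44 ± 0.08 in OPA1+/- (adjusted p = 0.0455). Of all genes tested, 0.114% had every 3 month library above every 6 month library, and Col11a1 and Col16a1 were the 2 members among them.

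Col5a2 encodes the alpha-2 chain of type V collagen, which with Col5a1 starts the assembly of type I fibrils. It lies on chr1:45413481-45542442, minus strand. Col5a2 was at 70.3, 79.2, 60.4 and 85.6 CPM in OPA1+/+ and at 72.8, 72.6, 82.8 and 83.1 CPM in OPA1+/- at 3 months, and at 60.9, 58.7 and 46.8 CPM in OPA1+/+ and at 57.8, 60.7, 51.1 and 51.5 CPM in OPA1+/- at 6 months. Only OPA1+/+ replicate 3 of 3 months, at 60.4 CPM, reached into the range of the 6 month libraries, which went up to 60.9 CPM. Col5a2 changed by -0.45 ± 0.08 on the log2 scale (edgeR adjusted p = 0.0336). The call was lost in 6 of the 15 fits that left out 1 library, with adjusted p up to 0.0734. Those libraries were OPA1+/+ replicate 2 and OPA1+/- replicate 3 of 3 months, and OPA1+/+ replicates 2 and 3 and OPA1+/- replicates 1 and 4 of 6 months.

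Col24a1 encodes a minor fibrillar chain found with type I collagen in cornea and bone. The gene is on chr3:144998233-145257766, plus strand, and had only 20 to 52 counts in a library. Col24a1 was at 2.03, 3.19, 2.6 and 3.49 CPM in OPA1+/+ and at 2.99, 2.76, 2.66 and 2.85 CPM in OPA1+/- at 3 months, and at 2.34, 2.02 and 1.94 CPM in OPA1+/+ and at 1.51, 1.54, 1.58 and 1.8 CPM in OPA1+/- at 6 months. In OPA1+/- the ages did not overlap, while in OPA1+/+ replicate 1 of 3 months lay among the 6 month libraries. Col24a1 changed by -0.62 ± 0.13 on the log2 scale (edgeR adjusted p = 0.0454). Its call was kept in only 3 of the 15 fits that left out 1 library, those without OPA1+/+ replicate 1 or 3 of 3 months or OPA1+/+ replicate 1 of 6 months, and reached an adjusted p of 0.134 in the others. With a minimum fold change of 1.2 in place of a test against 0, Col11a1 alone of the 4 was called.

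**Figure D2:**
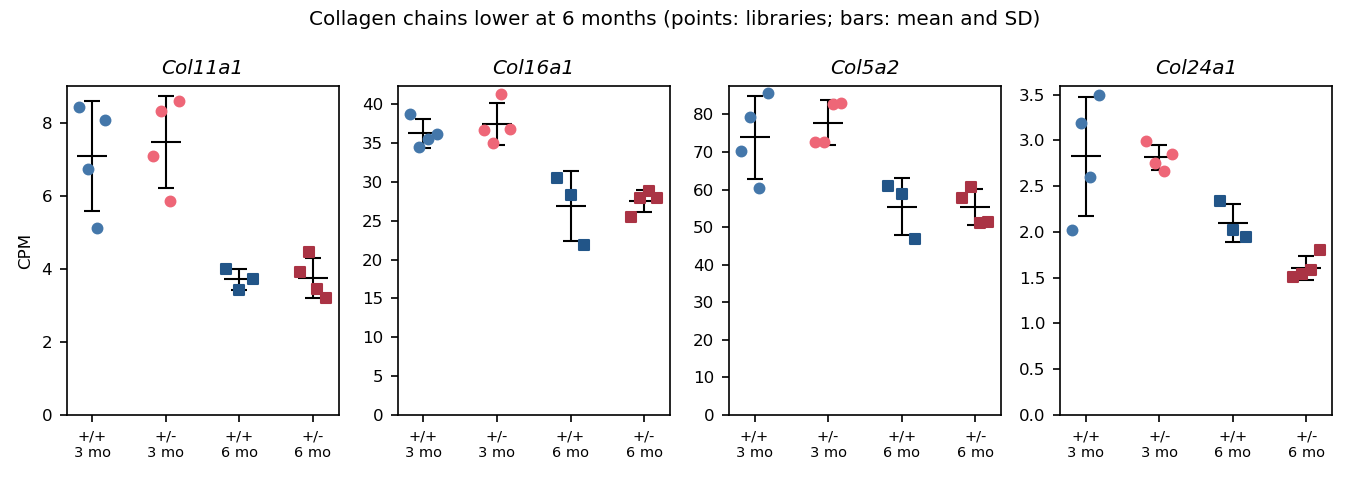
CPM of Col11a1, Col16a1, Col5a2 and Col24a1 in each library, by genotype and age, with bars at the group mean and its SD and each axis starting at 0. The 6 month points of Col11a1 (3.21 to 4.46 CPM) and Col16a1 (21.8 to 30.5 CPM) are below each 3 month point of the same gene.

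The promoter windows of 3 of these genes are printed to show the sequence around the starts of chains that fell together with age. Each is 300 bases from RefSeq's annotation of GRCm38.p6, from 250 bases before the gene's start to 50 bases after it, 5′ to 3′ along the gene. Capitals mark CCAAT and GGGCGG, on either strand (ATTGG and CCGCCC on the other). The windows are chr3:114030290-114030589 (plus strand), chr4:130047590-130047889 (plus strand) and chr3:145292222-145292521 (plus strand).
Col11a1: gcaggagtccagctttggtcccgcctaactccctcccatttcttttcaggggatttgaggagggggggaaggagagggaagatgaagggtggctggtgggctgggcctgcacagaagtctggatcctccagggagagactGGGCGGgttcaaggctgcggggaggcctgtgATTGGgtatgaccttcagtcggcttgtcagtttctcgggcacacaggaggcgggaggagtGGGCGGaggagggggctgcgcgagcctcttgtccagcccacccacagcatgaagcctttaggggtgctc
Col16a1: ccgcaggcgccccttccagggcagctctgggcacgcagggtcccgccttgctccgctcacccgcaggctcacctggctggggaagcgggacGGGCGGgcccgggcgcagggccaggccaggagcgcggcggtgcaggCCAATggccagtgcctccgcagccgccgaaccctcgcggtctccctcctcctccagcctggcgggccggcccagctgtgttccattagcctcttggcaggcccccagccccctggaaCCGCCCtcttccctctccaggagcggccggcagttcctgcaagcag
Col24a1: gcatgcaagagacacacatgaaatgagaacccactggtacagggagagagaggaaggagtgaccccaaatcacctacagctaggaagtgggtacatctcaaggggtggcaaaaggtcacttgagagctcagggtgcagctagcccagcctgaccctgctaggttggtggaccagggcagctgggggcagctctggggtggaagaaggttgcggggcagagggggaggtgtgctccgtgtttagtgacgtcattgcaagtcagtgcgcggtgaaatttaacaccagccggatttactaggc
The Col11a1 window held GGGCGG 110 and 19 bases before the start and CCAAT on the opposite strand 79 bases before it. In the Col16a1 window CCAAT stood 113 bases and GGGCGG 159 bases before the start, with a second GGGCGG on the opposite strand after it. Neither motif was found in the Col24a1 window. CCAAT was in 37.4% and GGGCGG in 35.7% of 32851 windows of this length, so both are common letters at promoters. Of the 27 members that have a window, 12 held CCAAT and 19 held GGGCGG in any of their windows. That count per gene is looser than the share per window, and whether the members differ from other genes was not tested.

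Among the fibrillar chains, all 10 tested, 8 had a negative log2 fold change with age, with a median of -0.36, and 3 fell. Col1a1 and Col1a2 encode the chains of type I collagen, the bulk of the stroma. Col1a1 was the most abundant fibrillar chain per length, at 93.5 ± 19.0 FPKM (CPM per kilobase of exon, SD, n = 15). Col1a1 was at 594, 669, 544 and 790.3 CPM in OPA1+/+ and at 663, 632, 865 and 778 CPM in OPA1+/- at 3 months, and at 601, 561 and 454 CPM in OPA1+/+ and at 535, 597, 495 and 426 CPM in OPA1+/- at 6 months. The ages overlapped in OPA1+/+ and did not in OPA1+/-. Its log2 fold change with age was -0.39 ± 0.11 (edgeR adjusted p = 0.16), and that of Col1a2 was -0.33 ± 0.09 (adjusted p = 0.16), so neither passed. Col5a1, the other main chain of type V, had -0.32 ± 0.11 (edgeR adjusted p = 0.255). Col11a2, the partner of Col11a1 in type XI collagen, had 0.20 ± 0.15 and did not pass, while Col27a1 had -0.22 ± 0.10 and Col5a3 0.01 ± 0.23.

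The balance between partner chains was read as the ratio of their FPKM values in each library. The ratio of Col11a1 to Col11a2 was 0.843 to 1.51 at 3 months and 0.363 to 0.802 at 6 months, so the ages did not overlap. Col1a1 to Col1a2 held at 2.32 to 2.76 in all 15 libraries, with an SD of 0.067 on the log2 scale against 0.289 and 0.244 for the 2 chains themselves. Likewise Col6a1 to Col6a2 had an SD of 0.064 on the log2 scale against 0.306 and 0.281 for the single chains. Within that small spread it was 2.02 to 2.23 at 3 months and 1.92 to 1.94 at 6 months in OPA1+/+, without overlap, and in OPA1+/- the ages overlapped. The size of such a ratio depends on the gene length used: with the longest coding transcript in place of all annotated exons, Col1a1 to Col1a2 was 1.19 ± 0.06 in place of 2.50 ± 0.12 (SD, n = 15). The ratio of Col5a1 to Col5a2 was 1.504 to 1.73 in OPA1+/+ at 3 months and 1.91 to 2.10 at 6 months, and in OPA1+/- the ages overlapped.

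**Figure D3:**
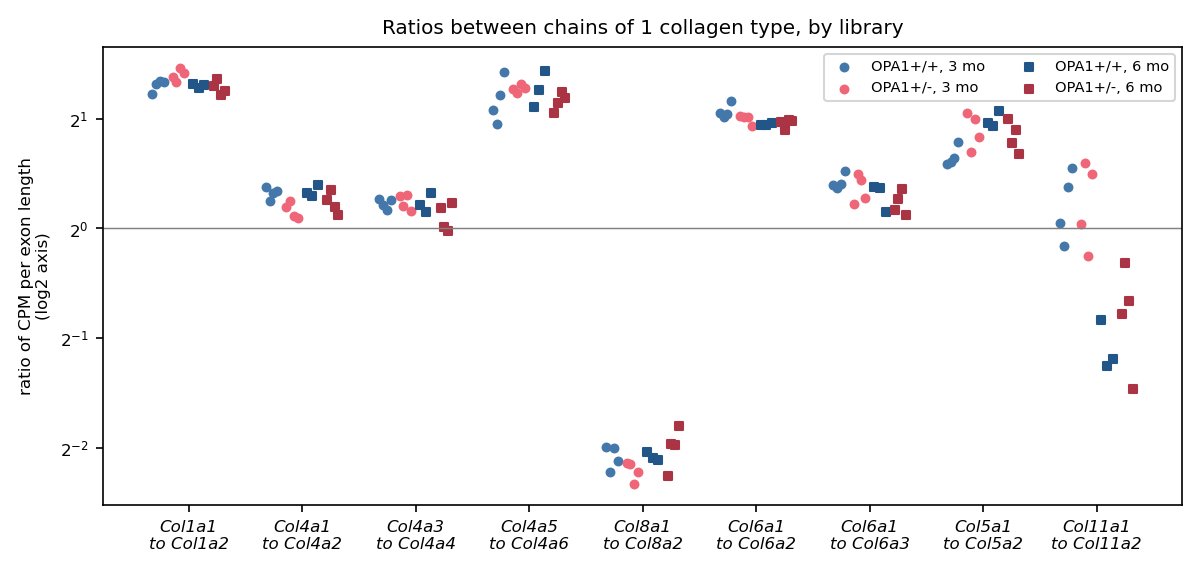
Ratio of FPKM between chains of 1 collagen type in each library, on a log2 axis, with 1 column of points per pair, circles for 3 months and squares for 6 months. The points of Col1a1 to Col1a2 stay between 2.32 and 2.76, while those of Col11a1 to Col11a2 fall into a 3 month set (0.843 to 1.51) and a lower 6 month set (0.363 to 0.802).

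Col3a1 encodes type III collagen, which is abundant in skin, vessels and conjunctiva and scarce in healthy corneal stroma. It was at 0.634 ± 0.359 FPKM, against 93.5 FPKM for Col1a1. Col3a1 was at 13.1, 11.5, 8.97 and 8.18 CPM in OPA1+/+ and at 5.51, 5.66, 5.09 and 3.73 CPM in OPA1+/- at 3 months, and at 11.4, 2.39 and 3.73 CPM in OPA1+/+ and at 3.09, 4.15, 2.23 and 4.69 CPM in OPA1+/- at 6 months. At 3 months each OPA1+/- library was below each OPA1+/+ library, and at 6 months OPA1+/+ replicate 1 stood at the level of the OPA1+/+ libraries of 3 months. The log2 fold change with genotype was -1.07 ± 0.38 at 3 months (edgeR adjusted p = 0.437), -0.73 ± 0.45 at 6 months (adjusted p = 0.634) and -0.90 ± 0.30 averaged (adjusted p = 0.218), so none passed. Without OPA1+/+ replicate 1 of 6 months the averaged value was -0.43 (edgeR adjusted p = 0.416), and the 6 month value turned direction, to 0.21 ± 0.30 (adjusted p = 0.908). The 3 month value in that fit stayed at -1.07 ± 0.20 (edgeR adjusted p = 0.0731, not called). Without both libraries with photoreceptor transcripts it was -0.95 ± 0.21 (edgeR adjusted p = 0.203).

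Of the 5 libraries with the most Col3a1, 4 also had the most Krt19, a keratin of conjunctival epithelium, while OPA1+/+ replicate 4 of 3 months, at 40.7 CPM of Krt19, was below OPA1+/- replicates 2 and 3 of that age, at 45.8 and 44.5 CPM. Krt19 was at 40.7 to 62.1 CPM in OPA1+/+ at 3 months and at 69.7 CPM in OPA1+/+ replicate 1 of 6 months, and at 22.4 to 45.8 CPM in the other 10 libraries. Krt4, another such keratin, had a different order, with its highest level, 125 CPM, in OPA1+/- replicate 2 of 3 months. Of the 9 markers of conjunctiva and goblet cells 7 were tested, and their log2 fold change with genotype at 3 months was negative for 7 of 7 (median -0.28), with none called. The summed markers were at 584 to 796 CPM in OPA1+/+ and 399 to 744 CPM in OPA1+/- at 3 months, and at 421 to 747 CPM in OPA1+/+ and 386 to 585 CPM in OPA1+/- at 6 months. The goblet cell mucin Muc5ac was at 0.307 CPM or less and Tff1 at 0.0726 CPM or less in every library. The part of conjunctival tissue in the Col3a1 levels was not tested.

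**Figure D4:**
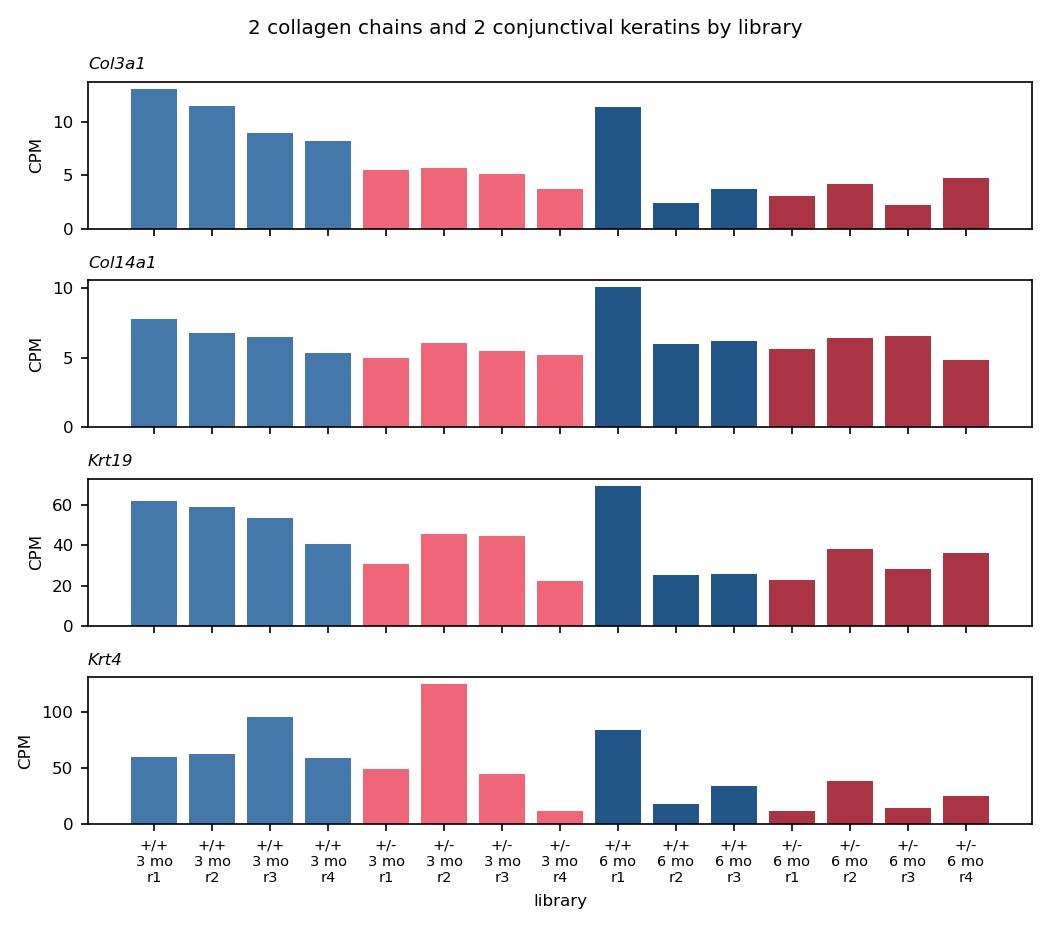
CPM of Col3a1, Col14a1, Krt19 and Krt4 in each of the 15 libraries, with 1 bar per library, axes starting at 0 and colours by group. OPA1+/+ replicate 1 of 6 months is higher than the other 6 month libraries in all 4 panels, at 11.4 CPM for Col3a1 and 69.7 CPM for Krt19.

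The FACIT chains sit on the surface of fibrils. Of 5 tested, 3 had a negative log2 fold change with age (median -0.15) and Col16a1 alone fell. Col12a1, which links fibrils in tendon, ligament and cornea, was the most abundant per length, at 56.5 ± 4.34 FPKM. Col12a1 was at 856, 865, 841 and 914 CPM in OPA1+/+ and at 951, 875, 963 and 939.6 CPM in OPA1+/- at 3 months, and at 779.7, 846 and 739 CPM in OPA1+/+ and at 895, 853, 834 and 764 CPM in OPA1+/- at 6 months. The ages overlapped in both genotypes, with a log2 fold change of -0.15 ± 0.04 (edgeR adjusted p = 0.0849, not called).

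Col14a1, a fibril-associated chain of tendon and skin, gave 1 of the 3 smallest p-values with genotype averaged over both ages. Col14a1 was at 7.76, 6.82, 6.53 and 5.37 CPM in OPA1+/+ and at 4.98, 6.05, 5.48 and 5.21 CPM in OPA1+/- at 3 months, and at 10.1, 5.97 and 6.22 CPM in OPA1+/+ and at 5.65, 6.46, 6.54 and 4.85 CPM in OPA1+/- at 6 months. OPA1+/+ replicate 1 of 6 months, high also for Col3a1 and Krt19, was the highest, and the genotypes overlapped at both ages. The averaged difference was -0.31 ± 0.12 (edgeR adjusted p = 0.258), and -0.17 ± 0.11 without that library (adjusted p = 0.636).

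Col20a1, a further chain of the class, was lower in OPA1+/- at 6 months without overlap. Col20a1 was at 10, 10.2, 6.69 and 7.58 CPM in OPA1+/+ and at 8.23, 6.96, 8.22 and 9.11 CPM in OPA1+/- at 3 months, and at 8.36, 8.81 and 8.63 CPM in OPA1+/+ and at 8.21, 6.84, 5.03 and 6.73 CPM in OPA1+/- at 6 months. The difference at 6 months was -0.36 ± 0.16 (edgeR adjusted p = 0.436). At 3 months the genotypes overlapped, with -0.08 ± 0.15. Col9a3, whose partners Col9a1 and Col9a2 did not meet the count rule, had 0.07 ± 0.13 with age and -0.07 ± 0.13 with genotype, and passed neither test.

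Type IV collagen forms the sheet of basement membranes, from chains encoded in pairs that lie head to head. In the coordinates of the files, the starts of Col4a1 and Col4a2 overlap by 22 bases on chromosome 8, Col4a3 and Col4a4 have 71 bases between them on chromosome 1, and Col4a5 and Col4a6 have 1308 on chromosome X. The windows of Col4a1, chr8:11312777-11313076 (minus strand), and Col4a2, chr8:11312555-11312854 (plus strand), are shown from RefSeq's GRCm38.p6 because they hold 1 stretch in common. Capitals mark the 78 shared bases, which each line reads from its own strand.
Col4a1: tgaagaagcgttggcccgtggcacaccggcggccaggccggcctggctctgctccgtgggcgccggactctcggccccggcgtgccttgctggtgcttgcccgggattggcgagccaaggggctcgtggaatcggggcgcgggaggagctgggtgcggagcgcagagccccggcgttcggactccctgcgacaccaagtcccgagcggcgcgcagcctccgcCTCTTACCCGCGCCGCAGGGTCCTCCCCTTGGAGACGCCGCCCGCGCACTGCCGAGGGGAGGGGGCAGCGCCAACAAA
Col4a2: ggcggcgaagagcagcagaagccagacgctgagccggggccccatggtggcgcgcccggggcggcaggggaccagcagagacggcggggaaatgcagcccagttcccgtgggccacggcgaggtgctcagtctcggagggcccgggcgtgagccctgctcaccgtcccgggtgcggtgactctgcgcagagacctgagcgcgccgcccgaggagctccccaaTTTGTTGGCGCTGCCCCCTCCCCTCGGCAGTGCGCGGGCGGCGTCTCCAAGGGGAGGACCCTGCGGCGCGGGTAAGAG
Per length, 5 of the 6 chains were close together. Col4a3 was the most abundant at 14.6 ± 1.70 FPKM, followed by Col4a1 at 13.4 ± 1.27, Col4a4 at 12.7 ± 1.01, Col4a2 at 11.2 ± 1.07 and Col4a5 at 10.6 ± 0.76 FPKM, each neighbour overlapping the next over the 15 libraries. Col4a6 was lower, at 4.56 ± 0.33 FPKM, and did not overlap Col4a5.

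Of the 6 basement membrane chains, 5 had a negative log2 fold change with age (median -0.11), 4 of them at an unadjusted p under 0.05, and none passed the test. Col4a1 and Col4a2 encode the chains found in nearly all basement membranes. Col4a1 was at 116, 108, 110.4 and 112 CPM in OPA1+/+ and at 97.5, 97.9, 98.1 and 104 CPM in OPA1+/- at 3 months, and at 111, 92.9 and 88.1 CPM in OPA1+/+ and at 97.7, 93, 89.9 and 85.8 CPM in OPA1+/- at 6 months. At 3 months each OPA1+/- library was below each OPA1+/+ library, and at 6 months the genotypes overlapped, with OPA1+/+ replicate 1 the highest. The genotype difference of Col4a1 was -0.17 ± 0.06 at 3 months (edgeR adjusted p = 0.421), -0.09 ± 0.06 at 6 months and -0.13 ± 0.04 averaged (adjusted p = 0.202), while Col4a2 had 0.01 ± 0.05 averaged. Without OPA1+/+ replicate 1 of 6 months Col4a1 had -0.07 ± 0.04 averaged (edgeR adjusted p = 0.503) and 0.02 ± 0.06 at 6 months (adjusted p = 0.964). Its 3 month value in that fit was -0.17 ± 0.05 (edgeR adjusted p = 0.2, not called). Col4a1 to Col4a2, as a ratio of FPKM at 3 months, ran from 1.068 to 1.186 over the OPA1+/- and from 1.191 to 1.299 over the OPA1+/+ libraries. These ranges were apart by a narrow gap, and the genotypes overlapped at 6 months. The ratio was not tested, and Col4a1 itself was already without overlap at 3 months.

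With age Col4a1 had -0.16 ± 0.04 (edgeR adjusted p = 0.122) and Col4a2 -0.20 ± 0.05 (adjusted p = 0.0796). Col3a1 had -0.66 ± 0.30 (adjusted p = 0.407). In the edgeR fit these calls turned on 1 library, OPA1+/+ replicate 1 of 6 months, which was high in photoreceptor markers and in Krt19. Without it Col4a1 had -0.21 (edgeR adjusted p = 0.0098), Col4a2 -0.26 (adjusted p = 0.00929) and Col3a1 -1.13 (adjusted p = 0.008), and 7 members were called lower with age in place of 4, against 1.44% of all genes. Without both libraries that held photoreceptor transcripts 8 members were called, against 1.57% of all genes, Col18a1 being the further one.

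Col4a3 and Col4a4 encode chains of the alpha-3, alpha-4, alpha-5 network, which is restricted to fewer basement membranes. Col4a3 was at 165, 150.02, 135 and 132 CPM in OPA1+/+ and at 166, 126, 165 and 153 CPM in OPA1+/- at 3 months, and at 147, 158 and 164 CPM in OPA1+/+ and at 143, 116, 119 and 143 CPM in OPA1+/- at 6 months. At 6 months each OPA1+/- library was below each OPA1+/+ library for Col4a3, as it was for Col4a4, and at 3 months they overlapped. The difference of Col4a3 at 6 months was -0.26 ± 0.11 (edgeR adjusted p = 0.41). Its interaction of genotype and age was -0.33 ± 0.15 (edgeR adjusted p = 0.696), which did not pass. Col4a5 and Col4a6 had -0.12 ± 0.04 and -0.11 ± 0.05 with age and did not pass.

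Col8a1 and Col8a2 encode the short chains of Descemet's membrane. Per length Col8a2 was the third of all members, at 58.2 ± 4.16 FPKM, and Col8a1 reached 13.7 ± 1.11 FPKM, a ratio of 0.199 to 0.288. Col8a2 was at 264, 261, 277 and 278 CPM in OPA1+/+ and at 275, 264, 284 and 287 CPM in OPA1+/- at 3 months, and at 245, 253 and 222 CPM in OPA1+/+ and at 273, 244, 261 and 235 CPM in OPA1+/- at 6 months. Its log2 fold change with age was -0.15 ± 0.04 (edgeR adjusted p = 0.077), and in OPA1+/+ the ages did not overlap. Col8a1 was at 116, 97.8, 121 and 112 CPM in OPA1+/+ and at 109, 104, 98.5 and 108 CPM in OPA1+/- at 3 months, and at 104, 104 and 89.9 CPM in OPA1+/+ and at 99.7, 109, 116 and 118 CPM in OPA1+/- at 6 months. The 4 highest values of 6 months included 3 of OPA1+/-, and the ages overlapped in each genotype. Col8a1 had the smallest p of the members for the interaction of genotype and age, at 0.25 ± 0.10 (edgeR adjusted p = 0.637), which did not pass.

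Type VI collagen forms beaded filaments that run between the fibrils, from the chains Col6a1, Col6a2 and Col6a3. Col6a1 was the most abundant per length, at 34.6 ± 7.32 FPKM. Col6a1 was at 148, 161, 138 and 209 CPM in OPA1+/+ and at 174, 172, 204 and 186 CPM in OPA1+/- at 3 months, and at 139.6, 134 and 104 CPM in OPA1+/+ and at 131, 137, 134 and 103 CPM in OPA1+/- at 6 months. In OPA1+/- every 6 month library was below every 3 month library, and in OPA1+/+ the ages overlapped by replicates 1 of 6 months and 3 of 3 months. The log2 fold change with age was -0.46 ± 0.10 for Col6a1 (edgeR adjusted p = 0.0777), -0.38 ± 0.10 for Col6a2 (adjusted p = 0.124) and -0.34 ± 0.08 for Col6a3 (adjusted p = 0.0778), so none passed in the edgeR fit. All 3 were called lower by DESeq2.

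Col6a4, a long chain related to Col6a3, was near the bottom of the order, at 0.241 ± 0.0998 FPKM and 10 to 39 counts. Col6a4 was at 3.12, 1.52, 2.6 and 1.28 CPM in OPA1+/+ and at 1.33, 2.91, 1.02 and 0.878 CPM in OPA1+/- at 3 months, and at 1.81, 0.746 and 2.57 CPM in OPA1+/+ and at 2.94, 2.54, 2.66 and 2.89 CPM in OPA1+/- at 6 months. The 4 OPA1+/- libraries of 6 months were close together, and the other groups spread over 0.746 to 3.12 CPM. Its interaction of genotype and age was 1.19 ± 0.57 (edgeR adjusted p = 0.725).

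Col7a1 encodes the anchoring fibril chain that ties the epithelial basement membrane to the stroma. Col7a1 was at 176, 150.02, 187 and 186 CPM in OPA1+/+ and at 194, 213, 172 and 165 CPM in OPA1+/- at 3 months, and at 186, 176 and 159 CPM in OPA1+/+ and at 169.5, 173, 144 and 159 CPM in OPA1+/- at 6 months. The groups overlapped in each comparison, with -0.11 ± 0.07 with age and -0.01 ± 0.07 with genotype. It was at 16.9 ± 1.72 FPKM.

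Col17a1, the transmembrane collagen of hemidesmosomes, was the most abundant member by far, at 682 ± 25.2 FPKM, and did not overlap the next, Col1a1. It lies on chr19:47634783-47680533, minus strand. Col17a1 was at 3958, 4109, 4053 and 4092 CPM in OPA1+/+ and at 4418, 4035, 3849.97 and 4119.6 CPM in OPA1+/- at 3 months, and at 4045, 4325 and 3995 CPM in OPA1+/+ and at 4109, 3987, 4103 and 4327 CPM in OPA1+/- at 6 months. Its range over the 15 libraries was 3850.0 to 4418 CPM, and it took 44.9% to 57.1% of all collagen counts. The log2 fold change was 0.02 ± 0.03 with age and 0.01 ± 0.03 with genotype, the smallest standard error of the members. The other transmembrane chains were far lower, Col23a1 at 1.87 ± 0.23, Col13a1 at 1.02 ± 0.21 and Col25a1 at 0.0704 ± 0.0247 FPKM, and none of the 4 passed any of the 7 comparisons.

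Col18a1, the multiplexin chain of basement membranes that carries the endostatin fragment, was at 0.374 ± 0.117 FPKM. Col18a1 was at 2.87, 3.27, 3.7 and 2.64 CPM in OPA1+/+ and at 2.79, 3.21, 3.99 and 1.59 CPM in OPA1+/- at 3 months, and at 3.77, 1.87 and 1.94 CPM in OPA1+/+ and at 1.73, 2.23, 1.65 and 2.11 CPM in OPA1+/- at 6 months. OPA1+/- replicate 4 of 3 months and OPA1+/+ replicate 1 of 6 months, the libraries with photoreceptor transcripts, were the lowest and the highest of their groups. The log2 fold change with age was -0.43 ± 0.19 (edgeR adjusted p = 0.377), and of the 24 alternatives tried it was called lower only without both of those libraries (-0.75).

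Ordered per length, Col17a1 was followed by Col1a1, then Col8a2 and Col12a1, which overlapped each other and stood apart from Col1a2 below them. From Col1a2 down to Col4a5, 12 members each overlapped the next. The longest coding transcript as the length moved 18 of the 33 FPKM values by more than their SD and lifted Col1a2 from 37.2 to 86.3 FPKM, since its annotated exons span 12426 bases against 5348 in that transcript. Summed over all members, collagen counts made 0.767% to 0.884% of a library at 3 months and 0.716% to 0.815% at 6 months, with overlap. The fibrillar chains took 14.4% to 20.02% of collagen counts at 3 months and 12.01% to 16.003% at 6 months, and the transmembrane chains took 45.1% to 52.3% at 3 months and 51.8% to 57.3% at 6 months.

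**Figure D5:**
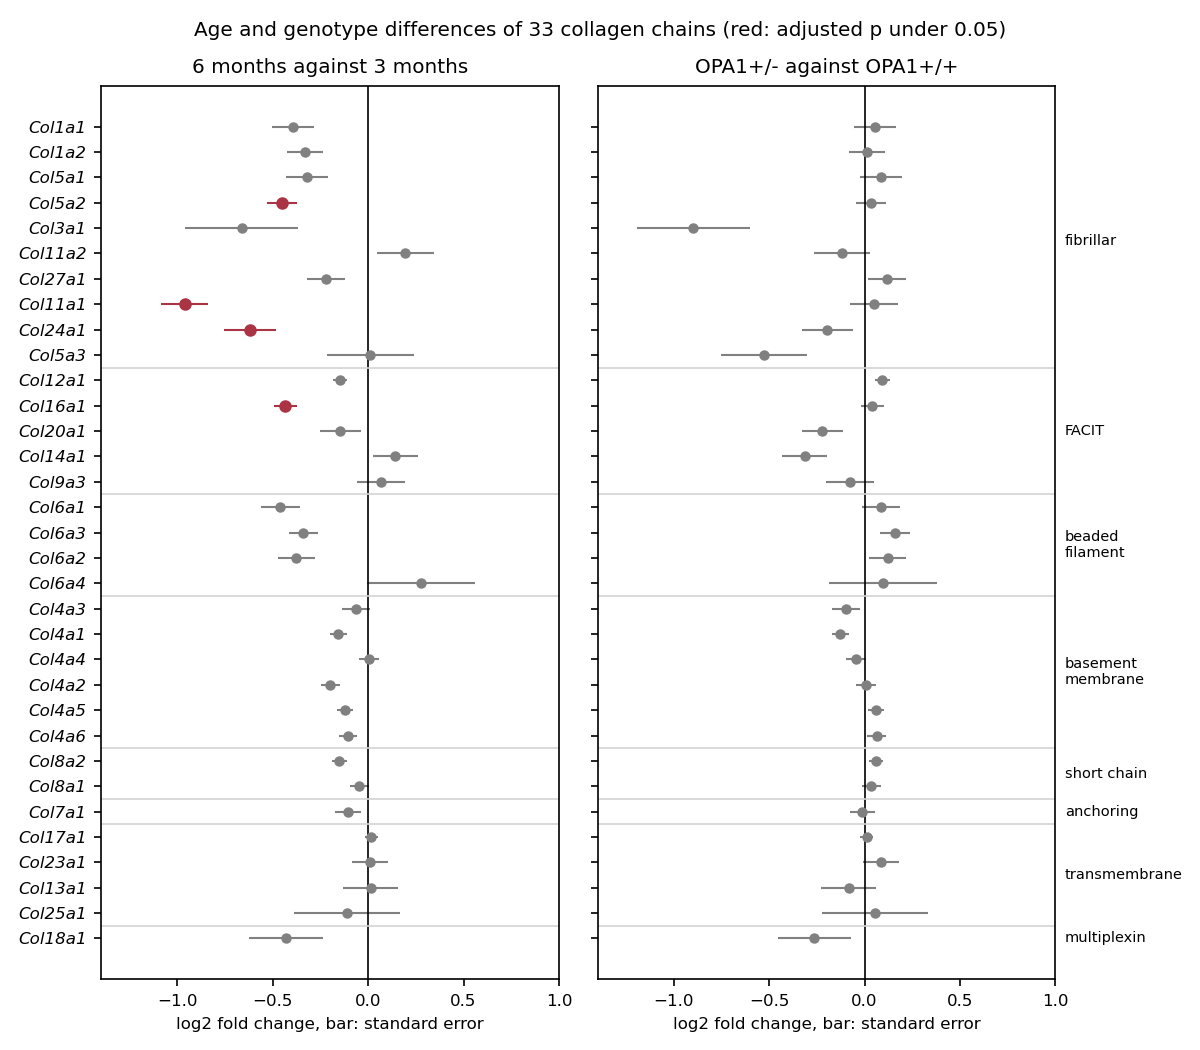
Log2 fold change of each member with its standard error, for 6 months against 3 months averaged over genotypes (left) and OPA1+/- against OPA1+/+ averaged over ages (right), with red for an adjusted p under 0.05. In the left panel Col11a1, Col16a1, Col5a2 and Col24a1 are red and 24 of 33 points lie left of 0; in the right panel no point is red.

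Within each genotype the age comparison gave fewer calls, on the same libraries that enter the average. In OPA1+/- 2 members fell, Col11a1 and Col16a1, where 0.0824% of all genes were called and 0.0634% were called lower. A further 10 chains had each 6 month library below each 3 month library there, among them Col1a1, Col1a2, Col5a1, Col5a2, Col24a1 and the 3 main type VI chains. That makes 12 of 33 members, against 3.14% of all genes tested. Fits without both libraries with photoreceptor transcripts called no member in OPA1+/-, against 0.0376% of all genes, with -0.92 ± 0.18 for Col11a1 (edgeR adjusted p = 0.0773) and -0.45 ± 0.08 for Col16a1 (adjusted p = 0.0663). DESeq2 called 7, against 0.425% of the 15754 genes it gave an adjusted p. Of the 15 fits that left out 1 library, 8 called neither gene in OPA1+/-: those without OPA1+/+ replicate 1 or OPA1+/- replicate 1, 2 or 4 of 3 months, or any of the 4 OPA1+/- libraries of 6 months. Another 3 kept Col11a1 alone, those without OPA1+/+ replicate 2 or OPA1+/- replicate 3 of 3 months or OPA1+/+ replicate 2 of 6 months.

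In OPA1+/+ no member passed in the edgeR fit, where 0.0507% of all genes were called, with 12 at an unadjusted p under 0.05 and all 12 lower (4.84% of all genes). DESeq2 called 3, Col11a1, Col16a1 and Col5a2, against 0.967% of the 12097 genes it gave an adjusted p. With limma voom none was called (0.12% of all genes), and the fit with no filter on low counts called Col11a1 and Col16a1 (0.332%). The ages did not overlap in OPA1+/+ for Col16a1, Col11a1 and Col8a2, against 3.7% of all genes. Without OPA1+/+ replicate 1 of 6 months 5 members were called lower in OPA1+/+, namely Col11a1, Col16a1, Col3a1, Col4a1 and Col4a2, against 1.06% of all genes. The same 5 were called without both libraries with photoreceptor transcripts (0.865%), and Col11a1 alone without OPA1+/+ replicate 3 or without OPA1+/- replicate 2 of 3 months. No member passed the test of the interaction, so the age difference was not shown to differ between genotypes: the interaction was -0.07 ± 0.25 for Col11a1, -0.02 ± 0.12 for Col16a1, -0.08 ± 0.16 for Col5a2 and -0.38 ± 0.27 for Col24a1.

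Between genotypes the edgeR fit called none of the 33 members at 3 months, where 0.00634% of all genes were called, with 4 members at an unadjusted p under 0.05 (9.03% of all genes). At 6 months it called none, against 0.323% of all genes, with 4 at an unadjusted p under 0.05 (10.2% of all genes). Averaged over both ages it called none, against 0.793% of all genes, with 5 at an unadjusted p under 0.05 (12.4% of all genes). For the interaction it called none, against 0.0% of all genes, with 2 at an unadjusted p under 0.05 (6.91% of all genes). DESeq2 and limma voom called no member in any of these 4 comparisons. DESeq2 leaves some genes without an adjusted p, and those cannot be called. It gave one to 12403 genes at 3 months, 12097 at 6 months, 13315 averaged and 6903 for the interaction. Of those it called 0.347%, 1.46%, 2.36% and 0.29% in the same order. Of all genes, limma voom called 0.0317%, 0.666%, 1.55% and 0.0%. The medians were 0.05 at 3 months, with 21 of 33 positive, and -0.07 at 6 months, with 21 of 33 negative.

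Beside Col3a1 and Col4a1, the smallest p at 3 months was that of Col27a1, a fibrillar chain of cartilage and other tissues. Col27a1 was at 7.01, 6.39, 5.59 and 7.41 CPM in OPA1+/+ and at 9.83, 6.89, 7.83 and 7.9 CPM in OPA1+/- at 3 months, and at 6.03, 6.2 and 7.07 CPM in OPA1+/+ and at 7.38, 5.69, 5.82 and 5.63 CPM in OPA1+/- at 6 months. The genotypes overlapped at both ages, and OPA1+/- replicate 1 of 3 months was the highest. The difference was 0.30 ± 0.13 at 3 months (edgeR adjusted p = 0.492) and -0.07 ± 0.15 at 6 months. At 6 months Col5a3, a further chain of type V collagen, joined Col4a3 and Col20a1. Col5a3 was at 2.28, 1.96, 1.57 and 2.3 CPM in OPA1+/+ and at 1.79, 0.536, 2.43 and 1.81 CPM in OPA1+/- at 3 months, and at 2.64, 3.06 and 1.48 CPM in OPA1+/+ and at 1.43, 1.54, 1.51 and 1.17 CPM in OPA1+/- at 6 months. OPA1+/+ replicate 3 lay among the OPA1+/- libraries of 6 months, and OPA1+/- replicate 2 of 3 months was the lowest at 0.536 CPM. The difference at 6 months was -0.76 ± 0.33 (edgeR adjusted p = 0.424).

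At 3 months 2 members, Col3a1 and Col4a1, had every OPA1+/- library below every OPA1+/+ library, against 1.95% of all genes. At 6 months these were 4 members, Col20a1, Col24a1, Col4a3 and Col4a4, against 5.62% of all genes. No member had every OPA1+/- library above every OPA1+/+ library at either age, against 2.66% of all genes at 3 months and 5.71% at 6 months.

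Most markers of keratocytes, the cells of the stroma, had negative log2 fold changes with age too, and in bulk tissue fewer cells of a type cannot be told apart from less RNA per cell. The keratocyte list had 7 of 8 genes with a negative log2 fold change with age (median -0.21) and none called. Its largest shift was in Angptl7, at 241 to 440 CPM at 3 months and 127 to 224 CPM at 6 months (-0.78, edgeR adjusted p = 0.0545). Summed, Kera, Lum and Dcn were at 872 ± 67.3 CPM at 3 months (SD, n = 8) and 745 ± 82.2 CPM at 6 months (n = 7), with overlap.

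Set against that sum in the same library, Col11a1 was at 0.669% to 0.973% at 3 months and 0.418% to 0.598% at 6 months, still without overlap. Col16a1 was at 3.74% to 4.92% and 3.46% to 4.35%, Col5a2 at 7.68% to 9.43% and 6.19% to 8.02%, and Col24a1 at 0.221% to 0.375% and 0.192% to 0.312%, so these 3 overlapped. Cartilage and bone markers, 8 in all, summed to 0.581 CPM or less in every library, and Acan was at 0.0769 CPM or less. Vessel and pericyte markers summed to 29.2 to 40.2 CPM at 3 months and 21.1 to 31.8 CPM at 6 months. Of these, 5 of 5 tested were negative and Kdr was called (-0.52, edgeR adjusted p = 0.0387). Conjunctiva and goblet cell markers had 7 of 7 tested negative with age (median -0.30) and lens markers 5 of 5 (median -2.29), none called. Summed lens markers were at 4.59 to 103.7 CPM at 3 months, highest in OPA1+/- replicate 4, and at 4.67 to 11.3 CPM at 6 months, with overlap. Corneal endothelium markers had 5 of 10 negative with age and immune cell markers 2 of 7. The part of any of these in the collagen levels was not tested.

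Genes that fold, process and bind collagen were taken from fixed lists. For comparison with each list, 49.5% of all genes tested had a negative log2 fold change with age averaged over genotypes, and 0.266% were called lower. Of 21 genes of folding and modification tested, 19 had a negative log2 fold change with age (median -0.11) and 1 fell. That was Serpinh1, the collagen chaperone of the endoplasmic reticulum, at 40.5 to 47.8 CPM at 3 months and 30.9 to 43.5 CPM at 6 months (-0.29 ± 0.05, edgeR adjusted p = 0.0162). Of 15 genes of procollagen processing and cross-linking, 13 were negative (median -0.19) and 2 fell, Sparc (-0.28 ± 0.05), a collagen-binding matrix protein, and the transglutaminase Tgm2 (-0.26 ± 0.04).

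Small leucine-rich proteoglycans, which space the fibrils, had 7 of 8 negative (median -0.21) and none called. Of 17 genes of collagen breakdown 1 fell, the gelatinase Mmp2, at 30.1 to 41.0 CPM at 3 months and 17.99 to 27.9 CPM at 6 months (-0.54 ± 0.08, edgeR adjusted p = 0.0069). Tested within OPA1+/-, 3 of them fell, where 0.0824% of all genes were called. They were Mmp2 (-0.63 ± 0.11) and the membrane-type metalloproteases Mmp15 (-0.46 ± 0.08) and Mmp14 (-0.29 ± 0.05). Within OPA1+/+ and for the interaction 0 genes of this list were called. Group means in OPA1+/+ at 3 and 6 months were 33.5 and 24.5 CPM for Mmp2, 24.3 and 23.6 CPM for Mmp15, and 142.9 and 143.2 CPM for Mmp14. Of 23 basement membrane partners 20 were negative (median -0.10) and 3 fell, Sparc again, the laminin chain Lama2 (-0.38 ± 0.08) and Dst (-0.21 ± 0.04), a plakin of hemidesmosomes. None of the 11 collagen receptors tested was called with age, in the edgeR fit. None of the genes on these lists rose with age.

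With genotype, 2 genes of these lists were called, where 0.323% of all genes were called at 6 months and 0.793% averaged over both ages. Adam17, a membrane protease on the breakdown list that sheds surface proteins, was at 87.8 to 102 CPM in OPA1+/- and 114 to 119 CPM in OPA1+/+ at 6 months (-0.31 ± 0.06, edgeR adjusted p = 0.0261), and was also lower averaged over both ages (-0.20 ± 0.04). Itgb4, the hemidesmosome integrin that is a partner of Col17a1, rose by 0.25 ± 0.06 averaged over both ages (edgeR adjusted p = 0.0439), while Col17a1 itself had 0.01 ± 0.03.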

How the data were processed

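RNA of whole mouse corneas was sequenced in 15 libraries, and per the labels' protocols it was extracted with Trizol and a column, depleted of ribosomal RNA and read as 75 bases from 1 end of strand-specific libraries. The authors counted reads per gene by featureCounts 2.0.1, adding up exons under 1 gene identifier with its strand setting at 2 and GENCODE release 28 for mouse, per the file headers, and deposited whole-number counts. The submitters' processing notes name mm10 and DESeq2, while only 2.87% of 52081 shared genes have the start and end of release 21 on GRCm38, so GRCm39 is taken as the build of the files' coordinates. The sources used here do not name the aligner. Symbols were joined by identifier for 94.1% of rows.

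Genes were tested with edgeR 4.0.16 (TMM, filterByExpr, robust quasi-likelihood, 1 mean per group, 11 residual degrees of freedom, biological coefficient of variation 8.84%) in 7 contrasts, with Benjamini-Hochberg adjustment over 15770 genes, in R 4.3.3. Every adjusted p is from this fit unless DESeq2 1.42.0 or limma 3.58.1 is named, and ± after a log2 value is its standard error. FPKM is CPM per kilobase of the deposited exon length, which counts all annotated exons. Each fit was tested on simulated counts. Alternatives were DESeq2, its size factors, limma voom, other filters, a minimum fold change, the replicate number as a block, only the groups compared, and each library left out. Leaving out both libraries with photoreceptor transcripts, and the longest coding transcript of release 21 as length, were chosen after seeing the data. The members and gene lists were chosen with earlier results of these data known. Values in every library are given for members called in any comparison, for the 3 with the smallest p in comparisons with under 3 calls, and for the most abundant per length of each class.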

Additional observations from a re-analysis of the deposited data

Results flagged for a closer look

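Within groups of 4 libraries, 147 sets of member values, class sums and chain ratios were searched for 1 library far from the others (its gap to the nearest, as a share of the range, above Dixon's critical value), and 6 stood out (4.08%, where chance gives about 1 in 20). OPA1+/- replicate 2 of 3 months was low in 3 of them. It had 333 CPM of Col6a3, a type VI chain, against 407 to 419 CPM in the other OPA1+/- libraries of 3 months. Its Col4a4 level was 115.9 CPM against 142 to 146 CPM, and its summed basement membrane chains were at 520.6 CPM against 598 to 602 CPM.

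OPA1+/- replicate 4 of 3 months, which held photoreceptor transcripts, had 103.7 CPM of Col4a1 against 97.5 to 98.1 CPM, and a Col6a1 to Col6a2 ratio of 1.91 against 2.02 to 2.03. OPA1+/- replicate 1 of 6 months had 7.38 CPM of Col27a1 against 5.63 to 5.82 CPM. The 3 OPA1+/+ libraries of 6 months were too few for this search.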

How the results depend on the processing

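The counts of members called with genotype and for the interaction were 0 under each of the 24 alternatives. For age averaged over genotypes, 4 members in the reported fit became 13 with DESeq2, 7 with limma voom, 8 when genes of low counts were kept, 1 with a minimum fold change of 1.2, 8 without both libraries with photoreceptor transcripts and 2 to 7 with 1 library left out. In OPA1+/+ the count of 0 became 3, 2 and 5 with DESeq2, with such genes kept and without both libraries, and 0 to 5 with 1 left out. In OPA1+/- the count of 2 became 7 with DESeq2, 0 with the minimum fold change, 0 without both libraries and 0 to 3 with 1 left out. The causes were not tested.

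With the replicate block the counts were 3 averaged, 0 in OPA1+/+ and 1 in OPA1+/-. Shares over all genes are not given for the block, nor for most fits with 1 library left out. Their counts are therefore set only beside those of the reported fit. Deviations from the group means correlated at -0.139 to 0.232 (median 0.012) over 21 pairs of libraries with the same replicate number. Over 63 other pairs they correlated at -0.182 to 0.263 (median 0.002). This comparison cannot show whether the numbers stand for a shared date or batch, which the labels do not give.

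Log2 fold changes of 8 members, none called, changed sign with age averaged. Without both libraries they were -0.0943 for Col13a1, -0.0116 for Col14a1 and 0.00897 for Col25a1, and Col13a1 had -0.00455 with limma voom. With 1 library left out they ran from -0.0944 to 0.0949 for Col13a1, -0.000409 to 0.21 for Col14a1, -0.00154 to 0.0357 for Col17a1, -0.0445 to 0.0709 for Col23a1, -0.27 to 0.0488 for Col25a1, -0.0311 to 0.0318 for Col4a4, -0.125 to 0.136 for Col5a3 and -0.00385 to 0.126 for Col9a3. Of 1223 recomputed log2 fold changes of members, for 51 reported ones, 1111 kept direction and side of the threshold. Col11a1 was called with age averaged under all 24 alternatives and Col16a1 under 23. Counts of 4 to 41 limit Col25a1, Col5a3 and Col6a4, and those of Col24a1, which was called with age, were also low, at 20 to 52.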
